A study of Mus musculus with 20 samples.

Results

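Retained-intron transcripts are annotated RNAs of a gene in which sequence that is normally spliced out stays in the molecule. They were taken here as the transcripts typed retained_intron in the GRCm38 annotation whose gene is protein-coding. There were 20585 of them among the 115270 transcripts quantified, or 17.9%, and they belonged to 8801 of the 22013 protein-coding genes, or 40.0%. No expression value was used to choose them. Polyadenylated RNA of 20 male mouse brain samples had been sequenced, all taken at an age of 13.5 months. There were 5 samples in each of 4 groups: wild-type (WT) hippocampus, miR-324-null hippocampus, WT neocortex and miR-324-null neocortex. The label for strain was C57BL/6J throughout. The miR-324-null mice carry a CRISPR/Cas9 deletion of the Mir324 locus in every cell, and they came from founders of mixed C57BL/6 and CBA/ca background that were backcrossed and bred into a WT and a null line. No Cre or transgene was involved. The sources used here do not state whether the hippocampus and the neocortex came from the same mice. Mir324 itself was not analysed here.

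An intron is removed from a pre-mRNA by the spliceosome, which recognises short sequences at its start (the 5′ splice site, usually GT) and its end (the 3′ splice site, usually AG). RNAs that keep an intron often stay in the nucleus, or are destroyed by nonsense-mediated decay once the intron exposes an early stop codon, and a few are stored and spliced later on demand. In neurons, intron retention is known for genes of synapses and of the splicing machinery itself, where it holds protein output down. A retained-intron transcript in an annotation is a record that such a molecule was once cloned or assembled, and many of these records are fragments.

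The records were short. Their median length was 870 bases, against 1926 bases for the protein_coding transcripts of the same genes. A whole intron of a coding isoform lay inside an exon of 6157 of the transcripts (29.9%), of which 4531 held exactly 1 and 1626 held 2 or more. Msto1-205 and Dcaf11-207 held the most, 11 each. The other 14428 held no whole intron of a coding isoform, and their structure was not sorted further. Most genes had few such records (3751 genes had 1), while 948 genes had 5 or more and Cspp1, which encodes a centrosome and spindle protein, had 16.

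The introns held whole were short and carried ordinary splice sites. The 7404 distinct ones had a median length of 257 bases (interquartile range 114 to 675), against 1481 bases for the 128718 other introns of the same genes, and 42.0% of them were under 200 bases, against 12.1%. To be held, an intron had to fit inside an exon of a record, and overlapping candidates were taken shortest first. The difference in length is therefore partly built in. The first intron of a transcript made up 8.29% of the introns held and 11.8% of the other introns. GT at the start and AG at the end were read in 7273 (98.2%), GC and AG in 83 (1.12%), and AT and AC, the ends of one class of minor introns, in 10. At the 5′ end, 29.6% began GTGAG and 21.4% began GTAAG. At the 3′ end, 66.7% ended CAG, 26.7% TAG and 5.74% AAG. Median GC content was 51.2% in the held introns and 53.2% in the rest of the same transcripts.

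**Figure D1:**
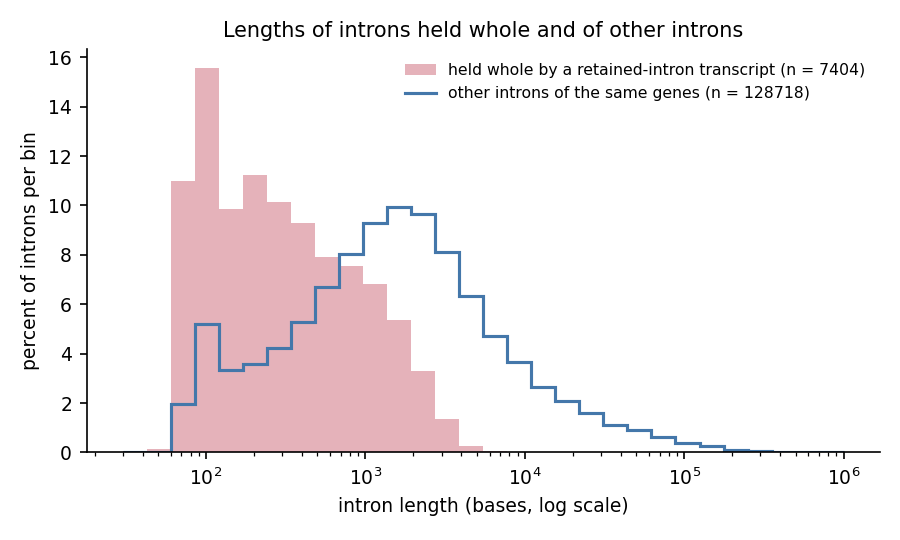
Lengths in bases (log scale) of the 7404 introns held whole by a retained-intron transcript (filled bars) and of the 128718 other introns of the same genes (line), as percent of introns per bin. The held introns sit to the left, with a median of 257 bases against 1481. An intron had to fit inside an exon of a record to be held, which favours short introns.

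The ends of 6 held introns of transcripts described further on are given to show what the records keep. Each start shows the last bases of the exon and then the intron, each end shows the intron and then the first bases of the next exon, both are 5′ to 3′ on the strand of the gene, and capitals mark the first 2 and the last 2 bases of the intron. The sequence is that of the GENCODE transcripts of GRCm38. The introns lie at chr10:5337334-5339224 (minus strand, 1891 bases, Syne1-207), chr4:150241141-150241766 (plus strand, 626 bases, Eno1-203), chr17:24899576-24899674 (minus strand, 99 bases, Mapk8ip3-217), chr6:113283088-113283195 (plus strand, 108 bases, the second intron of Cpne9, in Cpne9-210), chr8:83724530-83724617 (minus strand, 88 bases, Adgre5-204) and chr6:125162394-125162477 (minus strand, 84 bases, Gapdh-206).
Syne1-207 start: gaagaagaGTatgtgcttcacc
Syne1-207 end: ctcaatttggttaattttAGtattaa
Eno1-203 start: ggggaaggGTaaggatgggaac
Eno1-203 end: tattcacctctaatgggcAGgcgtct
Mapk8ip3-217 start: gctccgagGTaagtgctgggta
Mapk8ip3-217 end: cttcctgtctgttttcccAGccaaca
Cpne9-210 start: ggaccccaGTaagcagctccag
Cpne9-210 end: tcccctgccctcacccgcAGtggtgg
Adgre5-204 start: tcattttcGTaagtactctctg
Adgre5-204 end: agaccatgatccccactcAGtgcaat
Gapdh-206 start: agaaacctGTatgtatggggag
Gapdh-206 end: ttggggtttgttcttatcAGgccaag
All 6 have GT and AG, so that nothing in these letters sets them apart from the 98.2% above.

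A transcript can be measured apart from the other isoforms of its gene by the bases it shares with none of them. These private bases, found in no exon of any other transcript of the gene, numbered at least 100 in 15352 of the retained-intron transcripts (74.6%), 1 to 99 in 2953, and 0 in 2280 (11.1%). Splice junctions found in no other transcript can also set a transcript apart, and were not counted. Other reads from the remaining bases were divided between isoforms by the authors' software by estimation. For a transcript with few private bases the level below may therefore be mainly an allotment, and the number is given for each such transcript. An intron held by more than 1 record of a gene is private to none of them. No intron in these libraries can be told apart from unspliced pre-mRNA or from DNA by the tables alone.

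Most retained-intron transcripts were low. In TPM, a relative abundance that is corrected for transcript length, 1435 were at 0 in all 20 samples and 6397 were above 0 in all 20. Mean TPM over the 20 samples reached 1 in 6595 (32.0%), 10 in 957 and 100 in 66, and the median over all of them was 0.383, against 0.921 for the protein_coding transcripts of the same genes. In the 6487 genes with such a transcript and a mean of at least 5 TPM, the retained-intron transcripts held a median of 6.496% of the TPM of the gene (interquartile range 1.61% to 20.9%), and those with at least 100 private bases held 3.63%. They held over 50% in 402 genes (6.20%), or in 150 genes when only transcripts with at least 100 private bases were counted. Transcripts with no private base took 17.7% of the summed TPM of all the records, those with 1 to 99 took 32.5%, and those with at least 100 took 49.9%.

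The most abundant members came from housekeeping and neuronal genes. Gapdh-206, a record of the glycolytic enzyme gene Gapdh that keeps an intron of 84 bases, had a mean of 1483 TPM, the highest of all. It has no private base, and Gapdh has many processed pseudogenes. It ranged from 1159 to 2264 TPM in WT hippocampus, 577 to 1762 in miR-324-null hippocampus, 1188 to 2428 in WT neocortex and 513 to 1464 in miR-324-null neocortex, while the gene as a whole stayed between 3448 and 4170 TPM in every sample. The share of the gene given to it thus ran from 12.9% to 59.3%. Replicates 4 and 5 of both miR-324-null groups were the lowest, at 12.9% to 16.8%, and the genotypes overlapped in both tissues.

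Other abundant members held narrower ranges of their gene. Prkcb-208 (297 private bases), from the gene of protein kinase C beta, averaged 385 TPM and held 65.8% to 90.1% of its gene. Cox4i1-204 (135 private bases), from a subunit of cytochrome c oxidase, held 35.9% to 50.2%. Uchl1-202, from the gene of a neuronal deubiquitinase, held 65.3% to 72.0% but has only 52 private bases. Atp5j-208, with 100 private bases, held 60.5% to 68.7% of a subunit gene of ATP synthase.

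Itm2b-202 (78 private bases), from the gene of the membrane protein BRI2, ran from 368 to 631 TPM and held 51.7% to 62.5% of its gene. It was higher in the hippocampus in both genotypes, with log2 fold changes of 0.45 ± 0.08 and 0.40 ± 0.08 (adjusted p = 0.00458 and 0.012, edgeR), as was the gene (0.34 in both). Among ribosomal protein genes, Rps26-202 (187 private bases) held 93.3% to 98.6% of Rps26, Rps16-203 (68 private bases) 77.8% to 84.6%, and Rps25-203 and Rpl13a-213, with no private base, 52.3% and 49.4% of their genes over all samples. Rpl23a-202 (94 private bases) averaged 536 TPM. Genes of this family have many near-identical copies, and Rpl13a-213 and Rpl23a-202 also overlap small nucleolar RNA genes, so these levels are uncertain. Outside that family, Myl6-212, of a myosin light chain gene, has no private base and held 43.8% to 55.5%.

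Summed per sample, the retained-intron transcripts made up 5.56% to 6.52% of the TPM of protein-coding genes in WT hippocampus (mean 5.92% ± 0.38, SD, n = 5) and 5.72% to 6.39% in miR-324-null hippocampus (6.00% ± 0.24). In WT neocortex they made up 5.71% to 6.77% (6.24% ± 0.46), and in miR-324-null neocortex 5.93% to 6.72% (6.23% ± 0.33). All 4 groups overlapped. The same held for transcripts with at least 100 private bases, which made up 2.69% to 3.55% over the 20 samples. The number of these records at 1 TPM or more was 5467 to 7204 per sample.

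**Figure D2:**
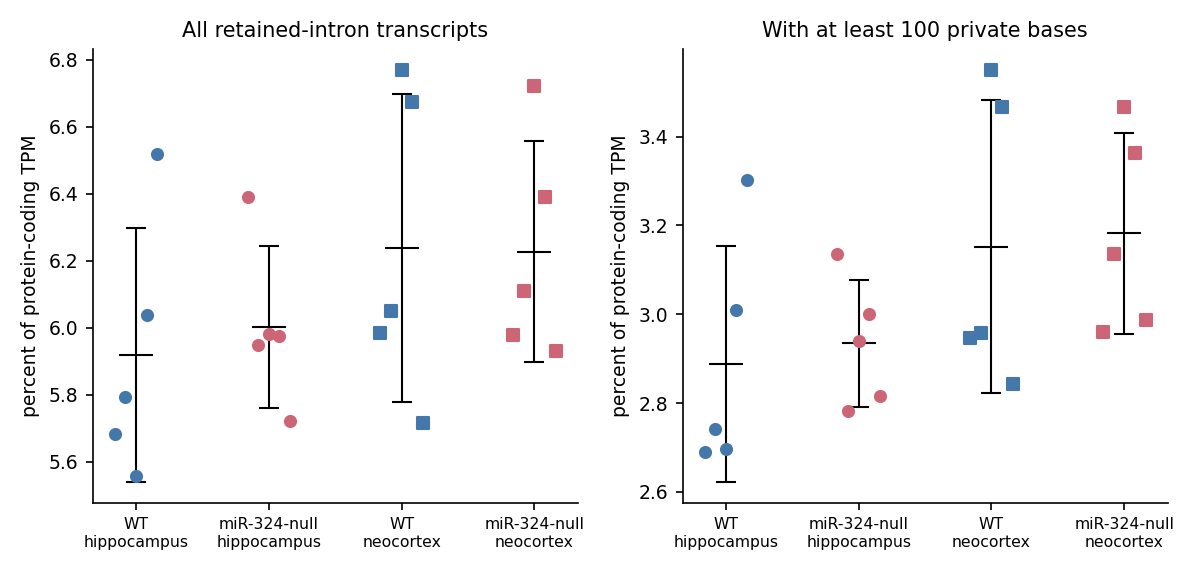
Summed TPM of the retained-intron transcripts in each sample, as percent of the TPM of protein-coding genes, for all of them (left) and for those with at least 100 private bases (right). Points are samples, long bars are means and whiskers are SD (n = 5 per group), and the axes do not start at 0. The 4 groups overlap in both panels.

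Total estimated counts were 12752439 to 19617765 per sample, and retained-intron transcripts took 3.04% to 3.85% of them. Genes marking the hippocampus summed to 326 to 429 TPM in the hippocampal samples and 99.7 to 164 TPM in the others, and those marking the neocortex to 452 to 707 TPM in the neocortex and 114 to 220 TPM in the hippocampus, so that the tissue labels held in all 20 samples. None of the marker genes checked was at 0 throughout. Genes of the choroid plexus, the epithelium that makes cerebrospinal fluid, ran from 42.2 to 7013 TPM in WT hippocampus, 57.6 to 6044 in miR-324-null hippocampus, 20.6 to 76.5 in WT neocortex and 33.2 to 1300 in miR-324-null neocortex. Genes of striatal projection neurons reached 976 TPM in miR-324-null neocortex, against at most 498 in WT neocortex, and 10 of 10 were higher in the neocortex than in the hippocampus of miR-324-null mice by the test on genes, against 3 of 10 in WT mice. Of 8 choroid plexus genes tested, 6 were higher in the hippocampus in WT and 1 in miR-324-null mice. Of 10 astrocyte genes 5 were higher and 1 lower in WT hippocampus (1 and 1 in miR-324-null mice), and of 10 meningeal genes 3 were higher in each genotype. None of the choroid plexus, striatal, astrocyte or meningeal genes passed between genotypes. The part of such tissue in the results below was not tested.

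The first question was which retained-intron transcripts differ between the 2 tissues. In WT mice, 227 of the 5862 with enough counts to test (3.87%) passed an adjusted p of 0.05 or less by edgeR's quasi-likelihood test, against 10.1% of all transcripts tested. Of these, 79 were higher and 148 lower in the hippocampus (5.15% and 4.95% of all transcripts tested). In miR-324-null mice 167 of 6139 passed (2.72%, against 6.75% of all transcripts tested), 68 higher and 99 lower (3.5% and 3.25% of all transcripts tested). There were 98 transcripts in both sets, 43.2% of the WT set and 58.7% of the other, all with the same direction. The same overlap over all transcripts is not given here. In tissue RNA of this kind, fewer cells of a type and less RNA per cell cannot be told apart, and the p-values measure only the spread between these samples.

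The counts behind these calls were low, with a median of 27.1 estimated counts per tested retained-intron transcript in the WT comparison and 131 per protein_coding transcript. Among those averaging at least 100 counts, 108 of 926 (11.7%) passed in WT mice, against 19.0% of the protein_coding transcripts of that depth. In miR-324-null mice 83 of 997 passed (8.32%, against 12.75%). Below 100 counts the shares were 2.41% against 4.96% and 1.63% against 2.95%.

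Tanc1-210 and Slc44a5-203 are given first as members whose gene passed the same test in both genotypes. Tanc1-210 (270 private bases, chr2:59841740-59845715, plus strand) comes from the gene of a scaffold protein of excitatory synapses. It stood at 27.3, 28.2, 29.96, 32.6 and 30.1 TPM in the 5 WT hippocampal samples and at 5.26, 5.03, 5.13, 6.01 and 4.21 in the WT neocortical ones. In miR-324-null mice it stood at 30.6, 34.9, 24.6, 21.7 and 34.9 TPM in the hippocampus and 8.31, 4.59, 4.997, 5.63 and 6.71 in the neocortex. Every hippocampal sample was above every neocortical one. Groups without overlap in TPM were found for 11.1% of all transcripts tested in WT and 9.55% in miR-324-null mice. The log2 fold change was 2.57 ± 0.08 (SE; adjusted p = 1.84e-07, edgeR) in WT and 2.37 ± 0.23 (adjusted p = 0.000391) in miR-324-null mice, and that of the gene was 2.41 and 1.99. The gene total includes Tanc1-210, which held 32.1% to 71.9% of it.

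Slc44a5-203, from the gene of a choline transporter-like protein, has 2580 private bases and so rests on far more sequence of its own. It ran from 6.55 to 10.7 TPM in WT hippocampus and from 0.833 to 1.54 in WT neocortex, and from 6.22 to 9.23 and 1.04 to 3.28 in miR-324-null mice. Neither pair of groups overlapped, and the log2 fold changes were 2.78 and 2.03, against 2.67 and 1.90 for the gene. The gene total includes this transcript, which held 51.7% to 77.0% of the TPM of Slc44a5 over the 20 samples. A member and its gene are therefore not independent.

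Other members were higher in the hippocampus. Myo5b-210 (146 private bases), of the gene of the motor protein myosin Vb, ran from 32.1 to 45.2 TPM in WT hippocampus and 6.22 to 10.03 in WT neocortex, and rose by log2 2.28 ± 0.15 in WT and 2.06 ± 0.25 in miR-324-null mice (adjusted p = 1.47e-05 and 0.0012, edgeR), against 2.06 and 1.73 for the gene. Myo5b-204, with 37 private bases, rose by 3.13 ± 0.77 in WT mice (adjusted p = 0.028) and lost that call in 9 of 16 alternative fits, which left out a sample or changed a setting. Homer3-207 (135 private bases), of the gene of a scaffold that binds metabotropic glutamate receptors, rose by log2 2.10 ± 0.33 in WT and 3.05 ± 0.62 in miR-324-null mice (adjusted p = 0.00244 and 0.0166, edgeR). Klk8-203 (218 private bases), of the gene of the secreted protease neuropsin, rose by 1.34 and 2.67, a call that was lost in 3 of 16 alternative fits in WT and in 11 of 16 in miR-324-null mice. Cpne7-204 (479 private bases), which keeps 3 introns of the calcium-binding protein gene copine 7, rose by 2.17 ± 0.41 and 2.25 ± 0.41. Slc9a4-202 (269 private bases), of a sodium-proton exchanger gene, ran from 1.74 to 4.29 TPM in WT hippocampus and 0 to 0.266 in WT neocortex, with a log2 fold change of 3.79 ± 0.57 (adjusted p = 0.00176).

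Members of another copine gene were lower in the hippocampus. Cpne9-210 (2171 private bases) runs through the first 6 introns of Cpne9, one of whose ends is printed above. It stood at 0.0734, 0.0756, 0.268, 0.427 and 0.300 TPM in WT hippocampus and 0.539, 0.942, 1.88, 1.66 and 1.10 in WT neocortex. The groups did not overlap here or in miR-324-null mice (0 to 0.288 against 0.597 to 1.92), and the log2 fold changes were -2.37 ± 0.53 and -2.91 ± 0.62 (adjusted p = 0.0177 and 0.0199, edgeR). Cpne9-206 (1481 private bases) keeps a later intron and fell with it, by 2.51 and 2.44 on the log2 scale, while the gene fell by 1.97 and 2.04.

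Other members lower in the hippocampus were Cd6-201 (117 private bases), of a lymphocyte receptor gene, Adam33-207 (172 private bases), which keeps 5 introns of a metalloprotease gene, and Dkkl1-203 (422 private bases), with log2 fold changes of -4.30, -4.08 and -2.81 in WT mice. BC030499-206 fell by 3.27 there but has no private base. Afap1l1-202 (236 private bases, 1 intron), of an actin-filament-associated protein gene, fell by 3.62 ± 0.90 (adjusted p = 0.0299, edgeR), from 0.488 to 1.52 TPM in WT neocortex to 0 to 0.236 in WT hippocampus, with an antisense gene over 149 of its bases. Adam33-207 was at 0 to 0.390 TPM in WT hippocampus and 1.80 to 2.67 in WT neocortex. In miR-324-null mice Sytl2-213, with 1154 private bases and an intron of 1311 bases of a vesicle-trafficking gene, fell by 2.62 ± 0.64 (adjusted p = 0.0379, edgeR). Ptk2-215, of the focal adhesion kinase gene, fell by 1.64 and 2.35 in the 2 genotypes, on 84 private bases. Cpne6-205, with no private base, rose by 2.31 in miR-324-null mice and had a log2 fold change of 1.04 (adjusted p = 0.66) in WT mice. Of these calls, Afap1l1-202 was lost in 10 of 16 alternative fits, Dkkl1-203 and Ptk2-215 in 8 of 16 each in WT mice, and, in miR-324-null mice, Sytl2-213 in 7 of 12 and Cpne9-210 in 7 of 16.

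Most of these differences went with the gene, whose summed counts include the member, so that part of this is built in. The gene passed in the same direction for 189 of the 227 members called in WT mice (83.3%) and for 132 of the 167 in miR-324-null mice (79.0%), in the opposite direction for 2 in each, and did not pass for 36 and 33. The matching figures for other kinds of transcript are not given here. The member's absolute log2 fold change had a median of 1.15 in WT mice against 0.67 for its gene, and of 1.20 against 0.64 in miR-324-null mice. Since a transcript of low count must differ more to pass, these sizes are a description of those that passed.

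**Figure D3:**
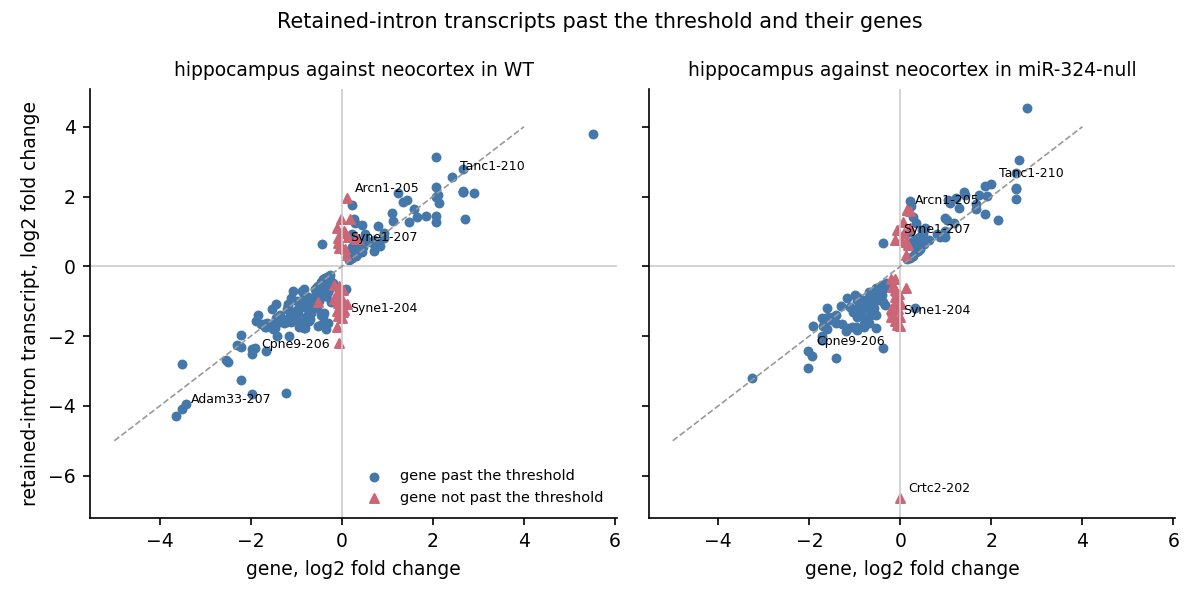
Log2 fold change, hippocampus against neocortex, of each retained-intron transcript past the threshold (vertical axis) and of its gene (horizontal axis), in WT (227 transcripts, left) and miR-324-null mice (167, right). Circles are transcripts whose gene also passed, triangles those whose gene did not, and the dashed line marks equal change. The gene passed in the same direction for 83.3% and 79.0% of the transcripts.

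Over all tested members the median log2 fold change was -0.13 in WT and -0.11 in miR-324-null mice, against -0.01 and -0.02 over all transcripts tested. For members with at least 100 private bases it was -0.15 in both, and for the others -0.05 and 0.03. Set against the protein_coding transcripts of the same sample, however, the median retained-intron transcript was at -0.10, -0.17, -0.19, 0.02 and 0.21 (log2 of TPM + 0.1) in the 5 WT hippocampal samples and at -0.08, 0.07, 0.23, 0.26 and -0.02 in the neocortical ones. The groups overlapped, as they did in miR-324-null mice (-0.17 to 0.13 in the hippocampus and -0.08 to 0.19 in the neocortex). Hippocampal and neocortical means were -0.05 ± 0.16 and 0.09 ± 0.15 in WT mice (SD, n = 5). In miR-324-null mice they were -0.04 ± 0.11 and 0.08 ± 0.10. For members with at least 100 private bases they were -0.07 ± 0.18 and 0.09 ± 0.16 in WT mice. In miR-324-null mice those members gave -0.07 ± 0.12 and 0.08 ± 0.12, and the groups overlapped in both genotypes. These differences were not tested.

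A small set of members passed in both genotypes while their gene passed in neither. There were 8, chosen for description after their values were seen. How often other kinds of transcript do this is not given here, so the 8 are not read as a trait of retained introns. Of the 8, those higher in the hippocampus were Syne1-207, Arcn1-205 and Mapk8ip3-217, and those lower were Syne1-204, Eno1-203, Kalrn-216, Atxn7l1-205 and Ttyh1-204.

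Syne1 encodes nesprin-1, a large spectrin-repeat protein that links the nuclear envelope to the cytoskeleton. Syne1-207 (chr10:5336949-5368486, minus strand, 182 private bases) keeps an intron of 1891 bases, number 32 of the 145 of its coding isoform. With 182 private bases in the whole record, most of that intron is also exon of other Syne1 transcripts. The level is therefore not a measure of that intron alone. Syne1-207 stood at 50.1, 61.4, 59.6, 63.3 and 49.3 TPM in WT hippocampus and 43.9, 36.1, 38.5, 40.6 and 41.4 in WT neocortex, with no overlap. In miR-324-null mice the hippocampal values were 47.2, 49.96, 63.9, 68.0 and 68.9 and the neocortical ones 32.7, 32.7, 32.6, 38.3 and 50.2, where 1 neocortical sample reached into the hippocampal range. The log2 fold change was 0.54 ± 0.08 (adjusted p = 0.00131, edgeR) and 0.76 ± 0.14 (adjusted p = 0.0113), and that of the gene 0.01 and -0.12.

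The share of Syne1 in this transcript was 42.7% to 47.6% in WT hippocampus and 28.8% to 36.1% in WT neocortex, and 46.4% to 52.9% against 24.9% to 36.2% in miR-324-null mice. The groups did not overlap, but the test on shares across all transcripts (limma) gave adjusted p = 0.196 and 0.0534. Syne1-204 (chr10:5131014-5142528, minus strand, 2410 private bases) went the other way, from 0.214 to 0.511 TPM in WT hippocampus to 0.727 to 1.58 in WT neocortex. Its log2 fold changes were -1.49 ± 0.33 and -1.55 ± 0.36 (adjusted p = 0.017 and 0.0306, edgeR). The pair therefore differed between tissues in opposite directions within a gene whose total did not pass.

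Arcn1-205 comes from the gene of the delta subunit of the COPI vesicle coat, and 2507 of its 2616 bases are private. It stood at 2.43, 1.997, 2.67, 2.42 and 2.49 TPM in WT hippocampus and 0.865, 0.445, 0.288, 0.798 and 0.794 in WT neocortex. All hippocampal samples of both genotypes (1.36 to 2.89 in miR-324-null mice) were above all neocortical ones (0.554 to 0.985). The log2 fold change was 1.95 ± 0.31 in WT and 1.61 ± 0.30 in miR-324-null mice (adjusted p = 0.00269 and 0.0101, edgeR), against 0.11 and 0.14 for the gene, and the shares were 4.09% to 5.72% against 0.642% to 1.97% in WT mice.

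Eno1-203 keeps an intron of 626 bases of the gene of the glycolytic enzyme alpha-enolase and has 1469 private bases. It stood at 4.21, 3.24, 2.63, 5.03 and 4.72 TPM in WT hippocampus and 6.25, 7.21, 7.86, 11.2 and 6.66 in WT neocortex, without overlap in either genotype. Its log2 fold change was -0.94 ± 0.22 in WT and -0.63 ± 0.16 in miR-324-null mice (adjusted p = 0.0238 and 0.0428, edgeR), and it made up at most 1.66% of Eno1 in any sample. Eno1 also has pseudogenes.

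The other 4 were a mixed group. Mapk8ip3-217, of the gene of the JNK scaffold and motor adaptor JIP3, keeps an intron of 99 bases and rose by log2 0.50 and 0.76, on 88 private bases. Kalrn-216 (1299 private bases), of the gene of the synaptic exchange factor kalirin, fell by 1.73 and 1.22. Atxn7l1-205 (538 private bases), of an ataxin-7-like gene, fell by 2.19 and 1.71. Ttyh1-204 (322 private bases, 2 introns), of a membrane protein gene of the tweety family, fell by 0.58 and 0.68. Exons of an antisense gene cover 193 bases of Atxn7l1-205 and 197 of Ttyh1-204. In WT mice the groups of Kalrn-216 and Ttyh1-204 overlapped through 1 hippocampal sample each (2.29 and 26.9 TPM). When each sample in turn was left out, Syne1-207, Arcn1-205 and Ttyh1-204 passed every time in both genotypes. Kalrn-216 missed the threshold in WT mice on leaving out any one of 8 samples, and Mapk8ip3-217 in miR-324-null mice for any one of 7. Syne1-204 missed it for 2 samples in WT and 6 in miR-324-null mice, Eno1-203 for 3 and 8, and Atxn7l1-205 for 6 in miR-324-null mice.

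**Figure D4:**
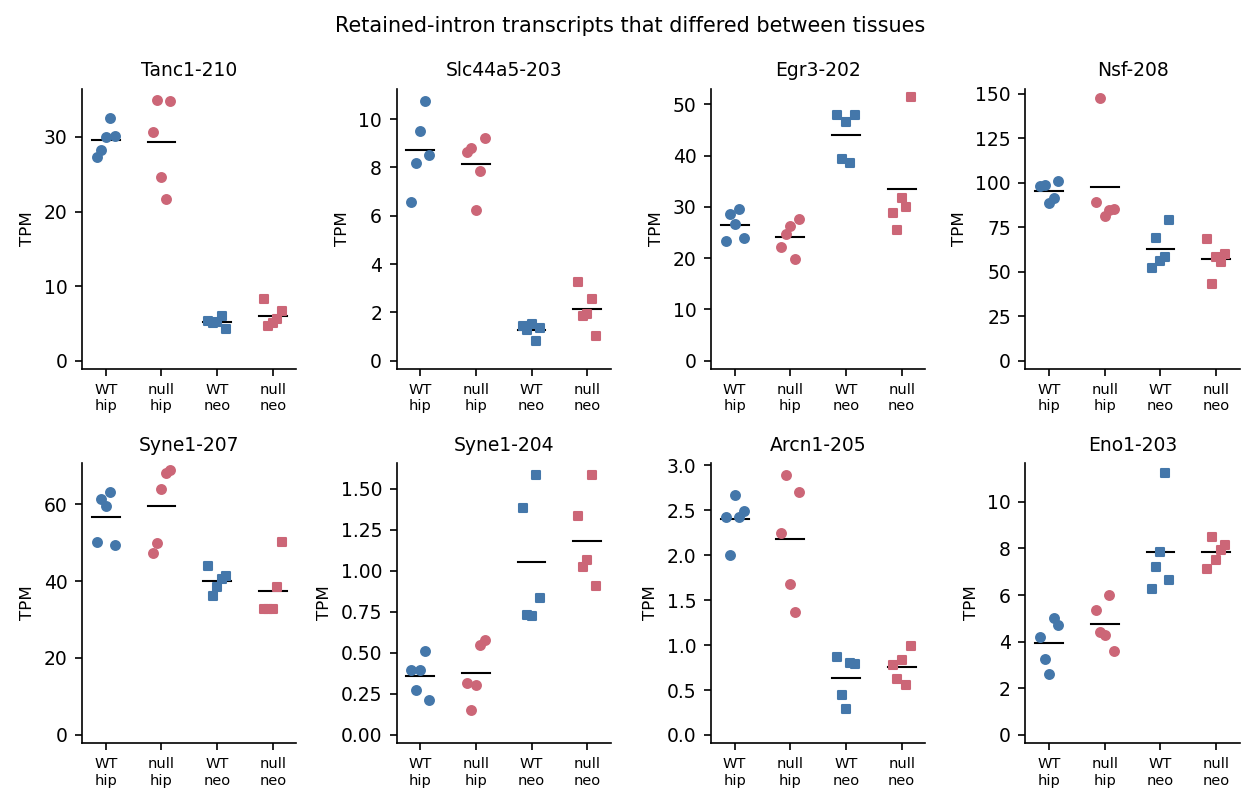
TPM of 8 retained-intron transcripts in each sample (points; blue WT, red miR-324-null; circles hippocampus, squares neocortex), with group means as bars and axes from 0. In the top row the gene passed the test of tissue in both genotypes, and in the bottom row in neither. Syne1-207 is higher and Syne1-204 lower in the hippocampus.

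The second question was whether loss of miR-324 alters these transcripts. At the level of single transcripts none passed: 0 of 5461 in the hippocampus, where 0.0288% of all transcripts tested passed, and 0 of 6179 in the neocortex, where 0.0246% did (edgeR). At an unadjusted p of 0.05 or less there were 166 in the hippocampus (3.04%, against 4.69% of all transcripts tested) and 254 in the neocortex (4.11%, against 6.26%). DESeq2 gave 12 and 7. On counts simulated from each genotype comparison, 42.9% of DESeq2's calls were false. Its share over all transcripts is not given here, so the 12 and 7 are not read as an effect. Median log2 fold changes were 0.01 and -0.01. The test of whether the genotype difference itself differed between tissues gave 0 of 7234 as well (0.0024% of all transcripts tested passed), with 192 at an unadjusted p of 0.05 or less (3.88% of all transcripts tested had such a p).

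The 2 tissues shared 20 of the transcripts at an unadjusted p of 0.05 or less, which is 12.05% of the hippocampal and 7.87% of the neocortical ones, and 18 of them had the same sign. The same overlap over all transcripts is not given here. The tissues may also come from the same mice, so the overlap is not read as an effect of genotype. From the 20, 3 are given as values, chosen after they were seen. Fmnl1-201 (367 private bases), of a formin gene that shapes actin, stood at 36.2, 43.3, 32.3, 35.2 and 42.5 TPM in WT and 27.7, 26.3, 21.7, 29.4 and 25.3 in miR-324-null hippocampus. In the neocortex it stood at 49.5, 55.9, 45.9, 62.3 and 50.2 in WT and 29.9, 27.0, 30.6, 33.3 and 43.8 in miR-324-null samples. The genotypes did not overlap in either tissue, as was so for 1.2% of all hippocampal and 1.38% of all neocortical tests, but neither difference passed (log2 -0.54 ± 0.11, adjusted p = 0.501, and -0.73 ± 0.14, adjusted p = 0.348, edgeR).

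6030458C11Rik-205, with 1500 private bases of 1971, gave a log2 fold change of -1.81 in both tissues (adjusted p = 0.483 and 0.568, edgeR). It ran from 0.735 to 2.32 TPM in WT and 0.361 to 0.767 in miR-324-null hippocampus, where the groups overlapped through 1 WT sample. Acbd4-213 (98 private bases), of an acyl-CoA binding protein gene on chromosome 11, stood at 18.02 to 20.5 TPM in WT and 23.9 to 28.6 in miR-324-null hippocampus, with log2 fold changes of 0.42 and 0.46 (adjusted p = 0.921 and 0.619). Acbd4 is on the study's own list of genes differing in both tissues, which was chosen on these samples, so its direction is not independent evidence.

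The share of a transcript in its gene was tested too, by limma on the log2 odds of TPM. Between genotypes 5 of 13923 retained-intron transcripts passed in the hippocampus (0.0257% of all transcripts tested passed) and 4 of 14444 in the neocortex (0.0284%). With 1 exception these were transcripts at or near 0 in every sample of 1 group and at most 6.90 TPM in the other, and a 0 here can be the outcome of the division of reads between isoforms. A transcript at 0 throughout 1 group passed the filter on mean TPM only through the other group. In the group at 0, its odds varied only with the rest of its gene. The adjusted p-values of such transcripts are therefore no support beyond the values themselves.

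Lrpprc-204 passed in both tissues. It is a record of 513 bases with 180 private ones, from the gene of a mitochondrial mRNA-binding protein, at chr17:84748781-84751262 on the minus strand, and holds no whole intron. It was listed at 0 in all 10 WT samples. In miR-324-null mice it stood at 2.08, 1.70, 0.913, 1.41 and 1.001 TPM in the hippocampus and 1.78, 1.995, 2.09, 2.14 and 1.13 in the neocortex, which rests on 2.84 to 5.47 and 3.95 to 7.38 estimated counts per sample. The genotypes did not overlap. For the share, limma gave an adjusted p of 0.00824 (hippocampus) and 0.000943 (neocortex). The transcript was too low to be tested for level, and the log2 fold change of the gene was 0.04 and 0.01.

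Ndst4-202, named after its values were seen, was the exception. Ndst4 encodes a heparan sulfate sulfotransferase, and this record of 5696 bases has 3322 private ones. The level of the transcript did not pass (log2 0.16 ± 0.34, adjusted p = 0.989, edgeR), at 0.159 to 0.368 TPM in WT and 0.132 to 0.455 in miR-324-null neocortex, while its share was 28.7% to 60.3% and 4.37% to 9.19% (adjusted p = 0.0157, limma). The gene as a whole, at 0.328 to 1.28 TPM in WT and 1.95 to 5.80 in miR-324-null neocortex, gave a log2 fold change of 2.82 ± 0.41 (adjusted p = 0.00934, edgeR). In the hippocampus the share was 0.688% to 5.25% in WT and 0.772% to 6.00% in miR-324-null samples. The WT tissue comparison called the same transcript (adjusted p = 0.00546, limma), with log2 fold changes of 4.05 for the gene and -0.26 (adjusted p = 0.845) for the member.

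The other share calls between genotypes rested on fewer bases or counts. Sidt2-205 (47 private bases), of a lysosomal membrane protein gene, and Prkag1-203 (8 private bases), of a subunit gene of the kinase AMPK with an antisense gene over 436 of its bases, were listed at 0 in all 5 WT hippocampal samples and at 1.47 to 3.40 and 1.03 to 1.77 TPM in the miR-324-null ones. In the neocortex of the same genotype each was at 0 in at least 1 sample, and the genotypes overlapped. Flvcr1-205 (20 private bases), of a transporter gene, was lower in miR-324-null hippocampus, at 0 to 0.159 TPM against 1.02 to 2.57, and its share call (adjusted p = 0.0475, limma) was lost in 12 of 15 alternative fits. Rnf166-202 (158 private bases), of a ubiquitin ligase gene, was at 0 in all 5 miR-324-null hippocampal samples and 0.687 to 2.91 TPM in WT ones, with the call lost in 6 of 14.

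In the neocortex, Adgre5-204 (165 private bases), whose gene encodes the adhesion receptor CD97, keeps a pair of introns of 88 and 77 bases, and exons of Ddx39 on the other strand cover 251 of its bases. It was listed at 0 in all 5 WT samples and at 0.898, 0.880, 2.23, 1.61 and 1.04 TPM in miR-324-null ones. In the hippocampus 2 of the miR-324-null samples were at 0 and all 5 WT samples were not, so that the 2 tissues differed in which group was at 0. Rpl34-204, of a ribosomal protein gene, has no private base. Its groups were 0 in all 5 WT samples and 3.03 to 6.90 TPM in miR-324-null ones.

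**Figure D5:**
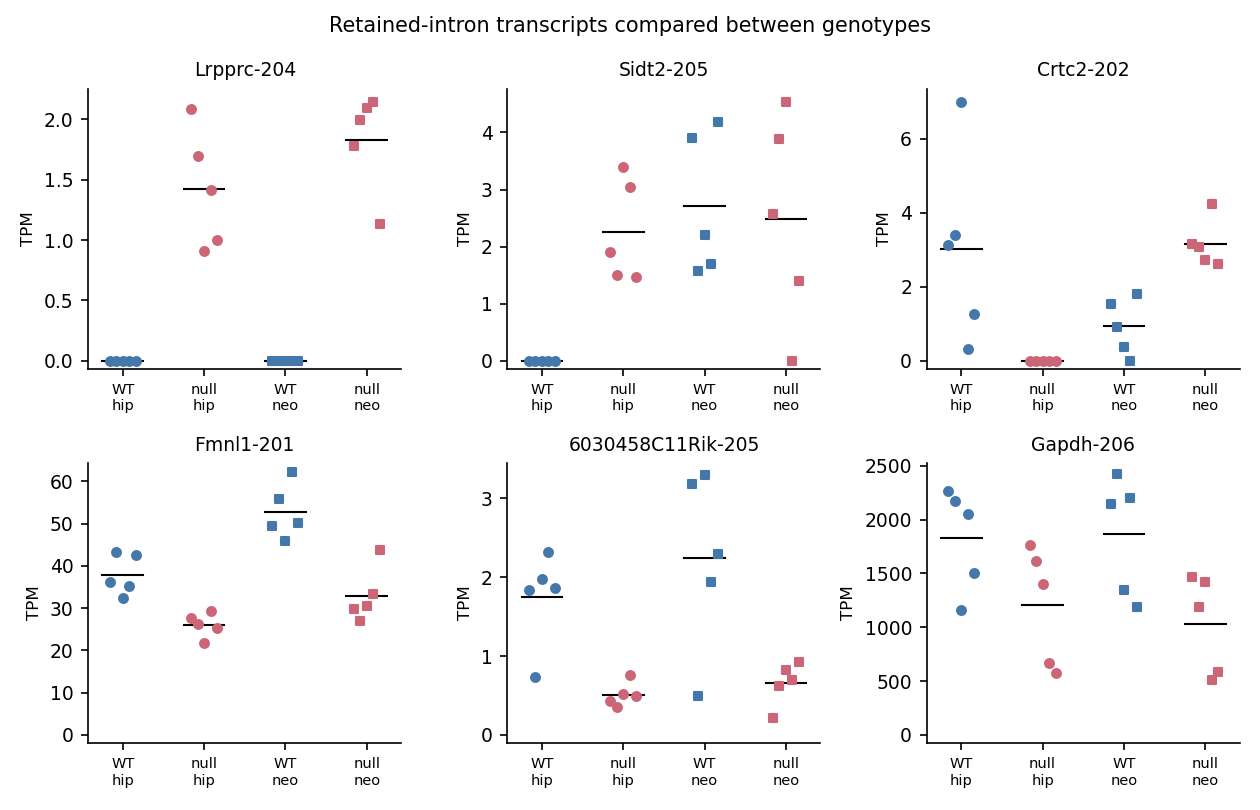
TPM of 6 retained-intron transcripts in each sample (points; blue WT, red miR-324-null; circles hippocampus, squares neocortex), with group means as bars. Lrpprc-204 is at 0 in all 10 WT samples, Crtc2-202 at 0 in all 5 miR-324-null hippocampal samples, and Gapdh-206 spreads widely in every group. Fmnl1-201 and 6030458C11Rik-205 did not pass the test of level.

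Between tissues, 9 of 14141 shares passed in WT mice (0.0797% of all transcripts tested passed) and 5 of 14367 in miR-324-null mice (0.067%). Il16-204 (1305 private bases) and Thsd4-203 (4139 private bases) had the form of Ndst4-202. Il16, of which brain has its own long form, and Thsd4, of an extracellular matrix protein, were higher in WT hippocampus by log2 3.51 and 2.86. The retained-intron transcript was low in both tissues, at 0.173 to 0.714 TPM against 0.0878 to 0.282 for Il16-204, so that its mean share was 1.84% ± 0.765 of Il16 TPM in hippocampal and 10.9% ± 4.66 in neocortical samples (SD, n = 5). For Thsd4-203 the mean share was 0.941% ± 0.491 and 9.16% ± 4.48. An antisense gene, Stard5, covers 1202 bases of Il16-204.

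The remaining WT calls were Sidt2-205, Prkag1-203, Adgre5-204, Tmbim4-203 (63 private bases), Cmtr1-203 (111 private bases, with exons of other genes over 790 bases of the same strand) and Anapc4-208 (2 private bases, named after its values were seen). Each was at 0 in 4 or all 5 samples of 1 tissue. In miR-324-null mice all 5 calls (Crtc2-202, Ncoa3-204, Ostf1-202, Smim7-202 and Ncoa4-213) were at 0 in every hippocampal sample. The limit given above for p-values of transcripts with a whole group at 0 holds here too. Between tissues, the share calls of Tmbim4-203 and Smim7-202 were lost in 10 of 14 alternative fits each, that of Il16-204 in 8 of 14 and that of Ncoa4-213 in 7 of 14. Crtc2-202, of the gene of a CREB coactivator, was also called for level there, with 2.62 to 4.24 TPM in the neocortex, but has no private base, and in WT mice it was at 0.311 to 7.002 TPM in the hippocampus and 0 to 1.81 in the neocortex. Since non-overlap was asked of every transcript named for its share, an exact permutation test of 5 against 5 gives each the smallest p that this design allows, 0.00794.

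By function, genes of the splicing machinery had 18.5% to 26.6% of their TPM in retained-intron transcripts. SR proteins, which bind exons and steer splice site choice, had 28 retained-intron transcripts in 9 genes, holding 24.9% of the TPM of the listed genes. None passed for tissue or genotype, with 18 to 20 tested for level in each comparison. Srsf2-203 (874 private bases, 2 introns) stood at 25.8 to 40.6 TPM in WT hippocampus and 29.2 to 46.1 in WT neocortex, with exons of Mettl23 on the other strand over 450 of its bases. Srsf5-212 and Srsf1-203, the latter with an intron of 378 bases, have no private base.

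The CLK, DYRK, SRPK and PRPF4B kinases, which phosphorylate SR proteins, had 37 such transcripts with 26.6% of TPM, of which 1 passed, Clk3-203 (276 private bases, 2 introns), lower in the hippocampus of miR-324-null mice by 0.60 on the log2 scale. For hnRNP and PTB proteins, which often oppose SR proteins, the figures were 56 and 18.5%, with none past the threshold among the 23 to 27 tested for level. Other spliceosome components and RNA-binding proteins had 119 and 23.0%. Clk3-203 was named after its values were seen. Son-213 (469 private bases), from the gene of a splicing cofactor of nuclear speckles, stood at 13.1 to 18.3 TPM in WT and 17.9 to 29.9 in miR-324-null hippocampus, overlapping through 1 sample, with adjusted p = 1 for level (edgeR). Ogt-204 (1349 private bases), from the gene of O-GlcNAc transferase, averaged 17.3 TPM and did not pass in any comparison.

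Synaptic genes held smaller shares. Postsynaptic density scaffolds had 47 retained-intron transcripts with 2.29% of TPM, glutamate receptors 25 with 9.62%, GABA receptors 14 with 8.76%, and the vesicle release machinery 43 with 5.46%. Homer3-207 was the only member from the 19 listed scaffold genes to pass for tissue, and Tanc1 is not among those genes. Nsf-208 (107 private bases) was the only member from the 27 listed release genes to pass for tissue. It comes from the gene of the ATPase that takes SNARE complexes apart, and stood at 97.9, 98.6, 88.8, 91.2 and 101 TPM in WT hippocampus and 51.8, 68.8, 56.2, 58.5 and 79.2 in WT neocortex. Its groups did not overlap in either genotype, with log2 fold changes of 0.63 ± 0.14 and 0.88 ± 0.22 (adjusted p = 0.0172 and 0.0386, edgeR), and the gene rose by 0.40 and 0.46. In miR-324-null mice the call of Nsf-208 was lost in 8 of 16 alternative fits. Gria2-206 (723 private bases), of the AMPA receptor subunit GluA2, averaged 20.1 TPM and did not pass.

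Immediate early genes, induced by neuronal activity, had 7 retained-intron transcripts. Egr3-202 (221 private bases), from a zinc finger transcription factor gene of this class, held 54.2% of its gene. It stood at 23.3, 28.5, 26.6, 29.5 and 24.0 TPM in WT hippocampus and 47.9, 39.4, 46.5, 38.5 and 47.9 in WT neocortex, a fall of 0.70 ± 0.09 on the log2 scale (adjusted p = 0.000468, edgeR) without overlap. In miR-324-null mice it was at 19.7 to 27.7 and 25.5 to 51.4 TPM, and the log2 fold change was -0.38 ± 0.19 (adjusted p = 0.317). Whether the genotypes differ in this was tested by the interaction, which gave no call.

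Circadian clock genes had 16 retained-intron transcripts with 10.6% of TPM, stress genes 21 with 7.54% and microRNA processing genes 31 with 17.2%. Only 6 to 9, 4 to 6 and 9 to 11 of them had enough counts to test for level. None of these passed in any of the 4 level comparisons. Between tissues, 3.87% (WT) and 2.72% (miR-324-null) of all retained-intron transcripts tested passed. A lack of calls among so few therefore says little. Tnrc6a-208 (472 private bases), from the gene of an Argonaute partner in microRNA silencing, keeps an intron of 144 bases and stood at 5.39 to 10.96 TPM over the 20 samples. O-GlcNAc cycling and methionine adenosyltransferase genes had 10, and the presynaptic genes whose introns are retained in non-neuronal cells had 3, with 0.331% of TPM. The study's own list of 40 genes differing in both tissues had 21. Of these Rapgefl1-203 passed for tissue, with log2 fold changes of 0.41 and 0.46, on 33 private bases. None of the 16 lists had a member past the threshold for genotype.

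At the Mir324 locus on chromosome 11, Dvl2, of Wnt signalling, and Acadvl, of fatty acid oxidation, had 9 retained-intron transcripts with 24.0% of TPM. Dvl2-206 (473 private bases) was the highest, at 2.26 to 4.45 TPM in WT and 2.32 to 3.84 in miR-324-null hippocampus, and 3.30 to 5.25 and 4.60 to 6.99 in the neocortex. Its log2 fold changes between genotypes were -0.16 and 0.41 (adjusted p = 1 and 0.829, edgeR), and the groups overlapped in both tissues. Acadvl-203 and Acadvl-206 overlap exons of Dvl2 on the other strand. Over chromosome 11, 14 of 283 members tested in hippocampus (4.95%) and 14 of 303 tested in neocortex (4.62%) had an unadjusted p of 0.05 or less between genotypes, against 3.04% and 4.11% over all chromosomes.

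Within 1 Mb of the locus, Kcnab3-203 (254 private bases), of a potassium channel subunit gene, was lower in the hippocampus, with log2 fold changes of -1.21 ± 0.28 in WT and -1.54 ± 0.22 in miR-324-null mice (adjusted p = 0.0198 and 0.0025, edgeR). Its WT groups overlapped through 1 hippocampal sample at 28.3 TPM. Chd3-203 (89 private bases), of a chromatin remodeller gene, rose by 0.70 ± 0.16 in WT hippocampus (adjusted p = 0.0174).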

How the data were processed

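Groups and replicate numbers came from the sample labels. The authors prepared stranded libraries with a poly(A) kit, sequenced them on a NextSeq 500 and quantified them with kallisto against the GRCm38 transcriptome (Ensembl release 92). The labels name a human build, GRCh38, but the identifiers are those of mouse transcripts. kallisto's version and strand setting are not given in the sources used here. The deposited tables hold, for each transcript, the authors' estimated counts and TPM. kallisto divides reads shared between isoforms by a likelihood, so isoform levels of 1 gene depend on each other and a value of 0 can be such an estimate.

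Of 115270 transcripts, 113580 matched the GENCODE M21 annotation by identifier without version. A whole intron was one of at least 30 bases of a coding isoform that lay inside an exon. Where such introns overlapped within a record, they were taken shortest first. Levels were tested with edgeR 4.0.16 (quasi-likelihood, TMM, filterByExpr, counts rounded) on the 10 samples of each comparison, shares with limma 3.58.1 on log2 odds with a pseudocount of 0.1 TPM (gene mean of at least 1 TPM, transcript of at least 0.1 TPM), and genes on summed counts, all adjusted by Benjamini-Hochberg over every transcript or gene tested. Log2 fold changes of shares are smaller than the true ones for low genes. Python 3.11.15, R 4.3.3 and, as an alternative, DESeq2 1.42.0 were used.

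The transcripts and lists were chosen with earlier results of these data known. The rule for naming took the 12 highest by mean TPM, the 5 largest changes each way among those past the threshold that did not overlap (at least 1 TPM in the higher group for levels, gene of at least 5 TPM for shares), up to 4 per list by level (1 per gene), members of the host genes Dvl2 and Acadvl, and members past the threshold within 1 Mb of Mir324 or on the list of the study. Of the members per list and of the host genes only some are described. Others are said to be chosen after their values were seen. A result for the list of other spliceosome components is not reported here.

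On counts simulated from the WT tissue comparison (33246 transcripts), edgeR recovered 27.1% of transcripts changed by log2 1 and 86.7% of those changed by log2 3, and DESeq2 47% and 93% with 42.1% of its calls false. Changes were put only into transcripts above a minimum mean count, of any type, and recovery was not split by depth. Total estimated counts of 12752439 to 19617765 per sample set the precision. Alternatives were other scaling, filters, pseudocounts, tools, private bases and samples.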

Additional observations from a re-analysis of the deposited data

Results flagged for a closer look

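Of 178 groups of 5 samples checked, 12 held 1 sample far from the other 4, where chance gives about 1 in 20. In TPM, WT hippocampus replicate 5 stood apart for Adgre5-204 (3.87, the others 0.672 to 1.56), Itm2b-202 (491, the others 557 to 582), Kalrn-216 (2.29, the others 0.407 to 0.940) and Rapgefl1-203 (88.0, the others 81.1 to 82.7). Mapk8ip3-217 was at 69.2 in miR-324-null hippocampus replicate 1 (the others 49.4 to 54.9) and Nsf-208 at 147 in replicate 2 (the others 81.3 to 89.3).

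In miR-324-null neocortex, Cpne7-204 was at 8.56 in replicate 4 (the others 2.01 to 3.40), where Homer3-207 was at 0 (the others 1.14 to 1.44), and Rapgefl1-203 was at 68.4 in replicate 3 (the others 54.3 to 58.3). In WT neocortex, Tmbim4-203 was at 0.221 in replicate 2 and 0 in the others, and Anapc4-208 at 3.32 in replicate 4 (the others 0.856 to 1.05). The share of estimated counts in retained-intron transcripts was 3.85% in 1 miR-324-null hippocampal sample.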

How the results depend on the processing

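Counts of retained-intron transcripts past the threshold moved with the method. For level between genotypes DESeq2 gave 12 in the hippocampus and 7 in the neocortex in place of 0, and leaving out 1 sample gave 0 to 1 (1 without miR-324-null replicate 1 or 5 in the hippocampus, 5 in the neocortex). On counts simulated from each genotype comparison, 42.9% of DESeq2's calls were false. The interaction gave 0 to 1 (1 without WT hippocampus replicate 2). For tissue, DESeq2 gave 354 in WT and 3.2e+02 (rounded) in miR-324-null mice, no filter gave 136 and 92, and a fit of all 20 samples gave 277 in miR-324-null mice. Leaving out 1 sample gave 151 to 244 in WT mice (151 without neocortex replicate 4) and 103 to 166 in miR-324-null mice (103 to 105 without neocortex replicates 2, 3 or 4).

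Share calls were few and less stable. In the hippocampus between genotypes, edgeR's diffSpliceDGE gave 0, members with at least 100 private bases 2, a pseudocount of 0.02 gave 8 and of 0.5 gave 3, and leaving out 1 sample 4 to 9 (9 without WT replicate 3 or miR-324-null replicate 5). In the neocortex diffSpliceDGE gave 1, and leaving out 1 sample 5 to 9 (7 or more without WT replicate 3, 4 or 5 or miR-324-null replicate 2). Between tissues in WT mice diffSpliceDGE gave 1, at least 100 private bases 5, no filter 22, a pseudocount of 0.5 gave 27, and leaving out 1 sample 8 to 14 (14 without hippocampus replicate 2 or 4). In miR-324-null mice no filter gave 10, pseudocounts of 0.02 and 0.5 gave 12 and 15, and leaving out 1 sample 5 to 13 (8 or more without hippocampus replicate 3 or 4 or neocortex replicate 1, 3 or 4). The cause of these moves was not tested. Lrpprc-204 missed the threshold in the hippocampus at a pseudocount of 0.5 (adjusted p = 0.0705, limma).

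With the replicate number as a block, 107 and 62 transcripts passed for tissue in WT and miR-324-null mice, 0 for genotype or interaction, and 0 shares in any comparison. The labels do not say that a number marks a mouse or batch, and the pairs did not all correlate, so the numbers were not taken to pair the samples: in the same-numbered tissues of WT mice deviations correlated from -0.13 to 0.13 and in those of miR-324-null mice from 0.026 to 0.30 (over 0.1 in 4 of 5 pairs, with 3 of 5 samples closest to their own number, against 2 of 5 in WT mice). Median tissue fold changes were -0.19 to -0.09 in WT and -0.16 to -0.08 in miR-324-null mice when 1 sample was left out. No call of a named transcript reversed in any alternative run. Median genotype fold changes took both signs, from -0.03 to 0.07 in the hippocampus and -0.05 to 0.04 in the neocortex. The mean summed level in the neocortex was 6.24% in WT and 6.23% in miR-324-null mice, but 3.15% and 3.18% for members with at least 100 private bases. In simulated data edgeR mostly missed log2 changes of 1. Those changes were put only into transcripts above a minimum mean count, so recovery of the low transcripts was not tested.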
